A study of Homo sapiens with 6 samples.

Results

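The response of A172 to miR-338-5p was read as the difference, for each gene, between the A172 array of cells transfected with pre-miR338-5p (called the mimic here) and the A172 array of cells transfected with a negative control oligonucleotide. These are 2 of the 6 arrays of the series, chosen by their labels. A172, T98G and U87MG are established glioblastoma cell lines from a public collection (GBM is short for glioblastoma multiforme, a malignant brain tumour of astrocytic type), and each gave 1 control array and 1 mimic array. All cultures were seeded 24 hours before transfection and harvested after 24 hours of further culture, and total RNA was measured on the Affymetrix Human Gene 1.0 ST array, which reads each gene with probes spread over its exons. The stated aim of the experiment was to find the targets of the microRNA. An untransfected culture or a culture given another microRNA was not analysed here. With 1 array a side, the mimic and anything else that differed between the 2 A172 cultures cannot be told apart.

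A microRNA guides the Argonaute silencing complex to messenger RNAs whose 3′ ends pair with its seed, and the paired messages are decapped, shortened at the tail and degraded. Direct targets are therefore read as messages that stand lower after a mimic is added, while messages that stand higher are usually indirect. Cells also carry sensors of foreign RNA, among them RIGI, IFIH1 and TLR3, which switch on type I interferons. Interferon acts through JAK kinases and a transcription factor complex that holds IRF9 on a short promoter element and raises a large set of antiviral genes. The arm under study and the opposite arm of the same hairpin are shown because the seed, in capitals (bases 2 to 8 of the mature RNA), decides which messages can pair, and the arms differ in it. Sequences are from RefSeq on GRCh38.p14, where the 5p arm lies on the minus strand at chr17:81125923-81125944 and the 3p arm at chr17:81125887-81125908.
hsa-miR-338-5p: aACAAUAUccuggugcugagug
hsa-miR-338-3p: uCCAGCAUcagugauuuuguug
The seeds read ACAAUAU and CCAGCAU. Transcript sequences were not used here, so seed matches in the messages were not counted.

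Levels are given as the deposited log2 values, so a difference of 1 is a 2-fold change; "higher" and "lower" mean that the mimic array stood above or below the control array of the same line. Of 18417 genes named by a probe set with 1 symbol, the 25% with the lowest mean over the 6 arrays were left out (below 4.28), and 13813 remained. The median difference over these genes in A172 was 0.0046 and the SD over genes 0.23, with 95% of genes between -0.44 and 0.46. The range ran from -1.83 to 2.53 in A172, against a highest value of 1.24 in T98G and 1.83 in U87MG. A difference of 0.5 in size was taken as a change of interest and 1 as a large one. The A172 difference itself has no replicate and no test. A limma model over all 6 arrays gave, besides the mean difference of T98G and U87MG, the A172 difference minus that mean with a test, two-sided and adjusted over all genes by the Benjamini-Hochberg method at 0.05. Its spread comes from T98G against U87MG alone, so the A172 arrays are assumed to vary like theirs. The labels give no replicate culture within a line and treatment, so p-values measure only the spread between these arrays.

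The lineage label was checked against marker genes. On the A172 control array VIM, an intermediate filament of glial and mesenchymal cells, was at 12.39 and CD44, a cell surface receptor, at 11.55. Of the astrocyte and glial progenitor list, 17 of 23 named genes passed the filter on low values. GLUL (glutamine synthetase) was at 8.28, the gap junction gene GJA1 at 7.41, SOX9 at 7.19 and the astrocyte filament GFAP at 5.16, while SLC1A3 was at 3.85, S100B at 3.75, SLC1A2 at 3.57 and AQP4 at 3.02. The neural stem factor SOX2 was at 4.60. Members of the list thus stood on both sides of the filter level of 4.28. Of the leukocyte and microglia list 8 of 17 named genes passed the filter, among them CD68 at 8.42 and TYROBP at 6.05, while PTPRC, AIF1 (3.31) and CD3E (3.66) did not. Of the endothelial list 5 of 10 passed, among them ENG at 10.38 and TEK at 6.26, while PECAM1 (3.34) and VWF (3.73) did not. None of these 13 leukocyte and endothelial genes differed by 0.5 between the A172 arrays. Of the epithelial list 7 of 9 passed, among them KRT18 at 10.86 and KRT8 at 10.41, while CDH1 (3.88) and KRT5 (3.79) did not. Of the neuronal list 12 of 19 passed, among them NEFL at 10.76, while DCX (3.36) did not. Of the oligodendrocyte list 3 of 9 did. High levels were thus not limited to the glial list. NFIB (0.68, glial list), EPCAM (0.51) and RBFOX3 (-0.53) were past 0.5 in A172.

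In A172, 22 genes stood lower by at least 1 (0.159% of the genes tested) and 24 stood higher by at least 1 (0.174%). At the threshold of 0.5 the counts were 238 lower (1.72%) and 271 higher (1.96%). The same counts were 310 lower (2.24%) and 202 higher (1.46%) in T98G, and 255 lower (1.85%) and 190 higher (1.38%) in U87MG. The T98G arrays differ in their medians, and with arrays centred on their medians 21.7% of the T98G genes past 0.5 were higher, against 39.5% here. The genes lower by 1 included vesicle traffic, decapping, phosphatase and Polycomb genes, and 19 of 22 (86.4%) were lower by at least 0.5 in both other lines as well, where 0.753% of all genes were (104 genes). The genes higher by 1 were led by interferon-stimulated genes, and 3 of 24 (12.5%) were higher by at least 0.5 in both other lines, where 0.246% of all genes were (34 genes). The lines share no array, so the differences in T98G and U87MG did not enter those of A172, but the filter used the mean over all 6 arrays and so their levels did. With the filter set on the A172 arrays alone, 19 of 22 lower and 3 of 25 higher genes were shared. At the threshold of 0.5 the shared portion was smaller: 69 of 238 lower (29.0%) and 25 of 271 higher (9.23%), with 107 lower and 198 higher under 0.5 in size in both other lines. Over the 22 lower genes the A172 median was -1.20, beside medians of -1.03 (T98G) and -1.14 (U87MG). Over the 24 higher genes it was 1.32, beside 0.07 (T98G) and 0.05 (U87MG). The members just inside and outside the thresholds lay close together: RHEB at -1.01 and PALLD at -0.9998, SNORA60 at 1.05 and PARD6G at 0.997.

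**Figure D1:**
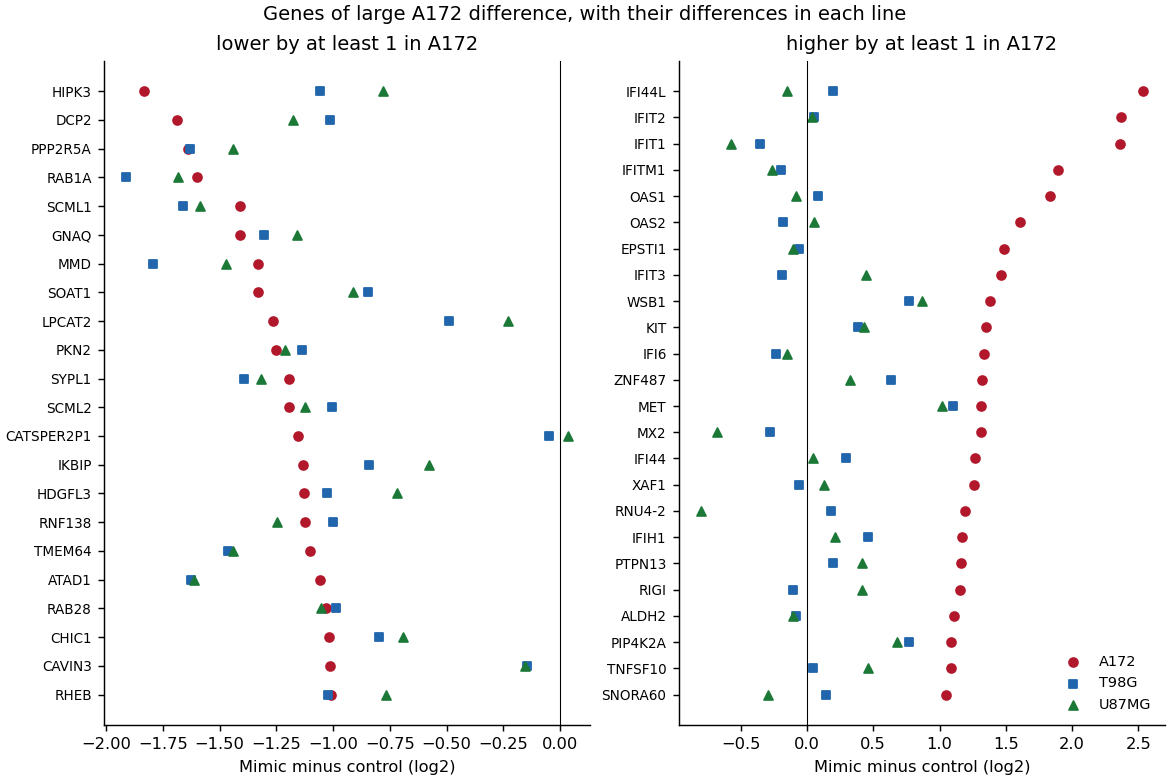
Difference between the mimic and the control array (log2, horizontal axis) in A172 (circles), T98G (squares) and U87MG (triangles) for the genes at least 1 lower (left) or higher (right) in A172, ordered by A172; each point is 1 pair of arrays. On the left the points of the 3 lines lie left of 0, except for CATSPER2P1 in U87MG, and LPCAT2, CATSPER2P1 and CAVIN3 lie nearest 0 in the other lines; on the right most T98G and U87MG points lie near 0, with MET, WSB1 and PIP4K2A near their A172 values.

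Among the lower genes were enzymes and regulators of messenger RNA and signalling. HIPK3, a nuclear serine/threonine kinase, had the lowest difference in A172. It stood at 9.03 on the control array and 7.19 on the mimic array of A172, at 7.63 and 6.57 in T98G and at 7.72 and 6.94 in U87MG. That is a 3.56-fold lower level in A172, and each mimic array was below all 3 control arrays. DCP2, the catalytic subunit that removes the cap of messenger RNAs, was at 8.48 and 6.79 in A172, 8.29 and 7.27 in T98G and 7.97 and 6.80 in U87MG. PPP2R5A, a targeting subunit of protein phosphatase 2A, was at 6.81 and 5.17 in A172, 7.41 and 5.77 in T98G and 7.11 and 5.67 in U87MG. Both again had their 3 mimic arrays below their 3 control arrays. In the limma fit, the mean fall in T98G and U87MG was -0.92 for HIPK3 (adjusted p = 0.031), -1.10 for DCP2 (0.012) and -1.54 for PPP2R5A (0.0033). The difference of A172 from that mean was -0.91 for HIPK3 and did not pass the same limma test (adjusted p = 0.77).

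RAB1A, a GTPase that moves vesicles to the Golgi, was at 10.46 and 8.87 in A172, 10.36 and 8.45 in T98G and 10.35 and 8.66 in U87MG. GNAQ, the alpha subunit that links receptors to phospholipase C, was at 9.94 and 8.53 in A172, 9.21 and 7.91 in T98G and 9.49 and 8.33 in U87MG. RHEB, the GTPase that activates mTORC1, was at 9.81 and 8.80 in A172, 9.60 and 8.58 in T98G and 10.23 and 9.47 in U87MG. In each of these genes the 3 mimic arrays lay below all 3 control arrays. The Polycomb-related genes SCML1 (8.20 to 6.78) and SCML2 (6.48 to 5.28) differed by -1.41 and -1.20 in A172. The same values were -1.66 and -1.01 for T98G, and -1.59 and -1.13 for U87MG. SOAT1, which esterifies cholesterol, went from 8.86 to 7.53 in A172 (-1.33), and the differences were -0.85 in T98G and -0.91 in U87MG. PKN2, a serine/threonine kinase, differed by -1.25, -1.14 and -1.21 in A172, T98G and U87MG. These members all passed the limma test in T98G and U87MG, with adjusted p from 0.0032 for RAB1A to 0.031 for RHEB, and the A172 term of none passed.

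The other shared lower genes of A172 were SYPL1 (-1.20), IKBIP (-1.13), HDGFL3 (-1.13), RNF138 (-1.13), TMEM64 (-1.10), MMD (-1.33), ATAD1 (-1.06), RAB28 (-1.03) and CHIC1 (-1.02). SYPL1 is a vesicle membrane protein, RNF138 a ubiquitin ligase and ATAD1 an ATPase that pulls misplaced proteins out of the outer mitochondrial membrane. IKBIP was the member that did not pass the limma test in T98G and U87MG (mean difference -0.71, adjusted p = 0.062). MMD stood at 5.26 in the A172 control and at 3.92 in the A172 mimic, which is under the filter level, while its control arrays in T98G and U87MG were at 8.51 and 7.69. NDFIP1 was, with PPP2R5A and RHEB, set apart as a known target. That label was taken as given, and its independence of these data was not tested. NDFIP1 recruits ubiquitin ligases of the NEDD4 family and was at 8.03 and 7.06 in A172. Its differences of -0.97, -0.95 and -0.95 in A172, T98G and U87MG were nearly equal. AATK, whose intron holds the miR-338 hairpin, was at 5.24 and 5.11 in A172, a difference of -0.13 within the central 95% of genes.

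From the opposite direction, genes chosen on T98G and U87MG alone were looked up in A172. The limma test called 54 genes as having fallen in T98G and U87MG (0.391% of genes) and 10 as having risen (0.0724%). These counts depend on the setting, from 17 lower and 3 higher with no filter to 241 and 83 with arrays centred on their medians. Of the 54, 42 (77.8%) stood lower by at least 0.5 in A172, against 1.72% of all genes, and 53 had the same sign; DHRS3, a retinal reductase, was the exception at 0.05. Their median was -0.76 in A172 and -0.91 in the mean of T98G and U87MG. Of the 10, 9 stood higher by at least 0.5 in A172 (90.0%, against 1.96% of all genes), and the exception was CCND3, a D-type cyclin, at 0.29. The 15 genes lower by at least 1 in both T98G and U87MG were all at least 0.5 lower in A172, where PLEKHA3 had the smallest difference at -0.70. No gene past 1 in both of those lines was under 0.5 in A172. In the wider set of 104 genes lower by at least 0.5 in both T98G and U87MG, 69 (66.3%) were so in A172, and 9 were under 0.25 in size there. These 9 were FAM234B, RPGR, DHRS3, RUNX2, OTUB2, ATPSCKMT, THAP6, LINC00525 and EGF. RUNX2, the osteoblast transcription factor, differed by -0.23 in A172 (T98G -0.71, U87MG -0.69), and EGF, the growth factor, by -0.06 (T98G -0.65, U87MG -0.57).

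GPAT3 fell in the other lines and was low in A172 on both arrays. This acyltransferase, which acts in triglyceride synthesis, was at 4.71 and 3.99 in A172, 9.18 and 7.31 in T98G and 9.78 and 8.22 in U87MG. Its A172 difference of -0.72 was smaller than those of T98G (-1.87) and U87MG (-1.57), and the A172 mimic level was under the filter level. KAT2B, a histone acetyltransferase, went from 7.98 to 7.14 in A172 (-0.84), against -1.02 and -1.05.

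Of the genes that stood higher in A172, a small group was shared by the 3 lines. MET, the receptor of hepatocyte growth factor, was at 7.62 and 8.93 in A172, 8.24 and 9.33 in T98G and 8.88 and 9.90 in U87MG. WSB1, a substrate receptor of a cullin ubiquitin ligase, was at 6.62 and 8.01 in A172, 7.40 and 8.17 in T98G and 7.16 and 8.03 in U87MG. PIP4K2A, a phosphoinositide kinase, was at 8.53 and 9.61 in A172, 7.63 and 8.40 in T98G and 8.57 and 9.25 in U87MG. In each line the mimic array of each gene lay above its control, and for MET and WSB1 the 3 mimic arrays lay above all 3 control arrays. In limma, MET rose by a mean of 1.06 in T98G and U87MG (adjusted p = 0.012) and WSB1 by 0.82 (0.031). Other genes past that limma test stood at 0.95 in A172 for PTPMT1 and TAPT1, 0.88 for TOMM20, 0.85 for BOD1, 0.79 for CYRIB and 0.67 for PPP2R1B. PTPMT1 and TOMM20 are mitochondrial, a phosphatase of cardiolipin synthesis and an import receptor, and PPP2R1B is a scaffold subunit of protein phosphatase 2A. KIT, the receptor of stem cell factor, stood at 7.40 and 8.75 in A172, 5.21 and 5.60 in T98G and 3.55 and 3.98 in U87MG. Its differences of 1.35, 0.38 and 0.43 had the same sign, and both A172 arrays were above the arrays of the other lines.

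**Figure D2:**
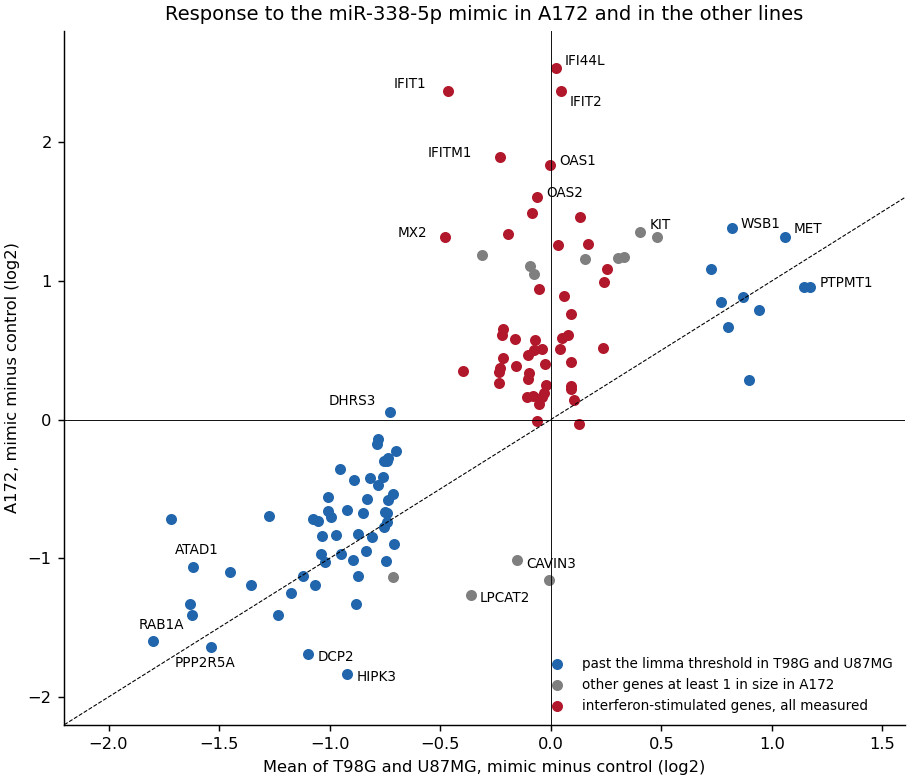
A172 difference (log2, vertical axis) against the mean difference of T98G and U87MG (log2, horizontal axis) for 3 sets of genes: those past the limma threshold in T98G and U87MG (blue), all measured interferon-stimulated genes (red) and other genes at least 1 in size in A172 (grey); the dashed line marks equal differences. Blue points follow the dashed line on both sides, and the red points reach 2.53 in A172 with means near 0 in the other lines.

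Interferon-stimulated genes made up 13 of the 24 genes higher by at least 1 in A172. Of 50 listed genes 49 were measured, and 26 of them stood higher by at least 0.5 in A172 (53.1%, against 1.96% of all genes) with 0 lower. Their median difference was 0.51 and 47 of 49 were positive, beside a median of 0.0046 over all genes. In T98G the median was -0.06 with 0 higher and 0 lower, and in U87MG it was -0.05 with 1 higher (RTP4, 0.64) and 2 lower (MX2, -0.68, and IFIT1, -0.58). No other list of the 51 reached a median of 0.5 in size in A172; the others ran from -0.14 to 0.19. In bulk RNA, a response in a few cells and a weaker one in all cells cannot be told apart.

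IFI44L, IFIT2 and IFIT1 had the highest A172 differences. IFI44L, an interferon-induced protein, was at 4.01 and 6.54 in A172, 6.28 and 6.48 in T98G and 8.78 and 8.63 in U87MG. IFIT2, one of the IFIT proteins that restrain translation of foreign RNA, was at 4.37 and 6.73 in A172, 4.53 and 4.58 in T98G and 4.49 and 4.53 in U87MG. IFIT1, which binds improperly capped RNA, was at 6.26 and 8.63 in A172, 6.65 and 6.29 in T98G and 4.95 and 4.38 in U87MG. The A172 mimic array was thus the highest of the 6 for IFIT1 and IFIT2, while for IFI44L it stood between the T98G and the U87MG arrays. The A172 differences were 2.53, 2.37 and 2.37, or 5.79-fold, 5.16-fold and 5.16-fold. IFITM1, a membrane protein that blocks virus entry, was at 5.58 and 7.47 in A172, 5.98 and 5.79 in T98G and 4.37 and 4.11 in U87MG (its close paralogs IFITM2 and IFITM3 have probe sets of their own, with A172 differences of 0.16 and 0.12, and cross-hybridization was not tested). OAS1, which makes the oligoadenylate messenger that activates RNase L, was at 5.79 and 7.62 in A172, 6.46 and 6.54 in T98G and 5.38 and 5.30 in U87MG. For both, the A172 mimic array was the highest of the 6.

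These 5 genes were those past the limma threshold for a higher difference in A172 than in T98G and U87MG (0.0362% of genes), and all 5 are in the list. The A172 term was 2.83 for IFIT1 (SE 0.19, adjusted p = 0.014), 2.51 for IFI44L (SE 0.21, adjusted p = 0.018), 2.32 for IFIT2 (SE 0.18, adjusted p = 0.018), 2.12 for IFITM1 (SE 0.18, adjusted p = 0.018) and 1.84 for OAS1 (SE 0.19, adjusted p = 0.049) by limma. With no filter on low genes 0 genes passed, and the limma adjusted p of these 5 ran from 0.058 to 0.15; with arrays centred on their medians 28 passed, 13 of them in the list. The next genes did not pass: OAS2 (term 1.67, adjusted p = 0.084), IFI6 (1.53, 0.084), EPSTI1 (1.57, 0.084) and MX2 (1.79, 0.095) by limma. For a lower difference in A172, limma called 0 genes (0.0%). In either direction 680 genes (4.92%) had an unadjusted limma p under 0.05 for the A172 term. That is about the share such a cut gives where no gene differs. For the mean difference of T98G and U87MG the same count was 1334 genes (9.66%).

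**Figure D3:**
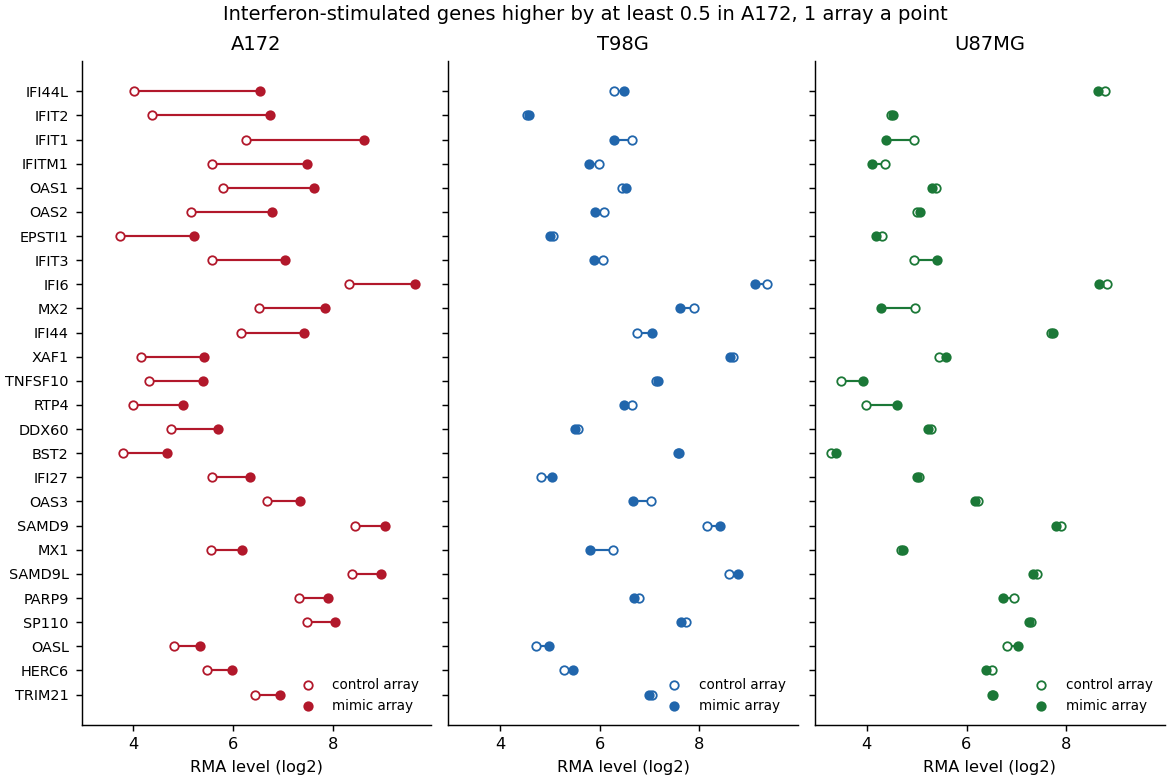
Level (log2 RMA value, horizontal axis) on the control array (open circle) and the mimic array (filled circle) of A172, T98G and U87MG for the 26 interferon-stimulated genes at least 0.5 higher in A172, ordered by A172; each point is 1 array. In A172 all 26 filled circles lie right of the open ones, by 0.51 to 2.53. In the other lines they lie on either side, with differences from -0.47 to 0.29 in T98G and from -0.68 to 0.64 in U87MG.

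Other effectors stood higher by 1 or more. OAS2 was at 5.16 and 6.77 in A172 and IFIT3 at 5.58 and 7.04, with differences of 1.61 and 1.46 against -0.18 and -0.19 in T98G and 0.05 and 0.45 in U87MG. MX2, a dynamin-like GTPase, was at 6.52 and 7.84 in A172, 7.88 and 7.60 in T98G and 4.96 and 4.28 in U87MG, so its sign in A172 was opposite to that in both other lines. IFI6 went from 8.32 to 9.66 in A172 (1.34), IFI44 from 6.16 to 7.42 (1.27), EPSTI1 from 3.73 to 5.22 (1.49), XAF1 from 4.16 to 5.42 (1.26) and TNFSF10, the death ligand TRAIL, from 4.31 to 5.39 (1.08). RSAD2 (viperin), which was left out by the filter, went from 3.93 to 5.99 in A172, a difference of 2.06 against -0.30 in T98G and -0.19 in U87MG. Further down, MX1 differed by 0.61, OAS3 by 0.66, BST2 (tetherin) by 0.89, DDX60 by 0.94 and IFI27 by 0.76. BST2 was at 3.78 and 4.68 in A172, around the filter level of 4.28, at 7.56 and 7.59 in T98G and at 3.28 and 3.37 in U87MG. Other members differed less: ISG15, the ubiquitin-like modifier, differed by 0.37, USP18, which removes it, by 0.35, EIF2AK2 (the kinase PKR) by 0.25, IFITM3 by 0.12, LGALS3BP by -0.01 and ISG20 by -0.03.

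The levels of the list in A172 were set against the other lines. Over all 49 measured members, the A172 control array was below both other control arrays in 15 (30.6%, against 31.8% of all genes), and the A172 mimic array was the highest of the 6 in 26 (53.1%, against 19.3%). The median level over the 26 higher members was 5.58 and 6.86 in A172, 6.65 and 6.51 in T98G and 5.33 and 5.35 in U87MG. These 26 were chosen by their A172 difference, so their A172 medians depend on that choice. Over all 49 measured members the medians were 6.33 and 7.17 in A172, 6.78 and 6.68 in T98G and 6.53 and 6.51 in U87MG. In both sets the A172 mimic median lay above both T98G medians.

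Among 24 measured genes of RNA sensing and interferon signalling, 5 stood higher by at least 0.5 in A172 (20.8%, against 1.96% of all genes) and 0 lower (against 1.72%), with a median of 0.11. IFIH1 (MDA5), a cytosolic sensor of long double-stranded RNA, was at 4.62 and 5.79 in A172, 6.85 and 7.31 in T98G and 5.01 and 5.22 in U87MG. RIGI, the sensor of uncapped RNA ends, was at 5.82 and 6.98 in A172, 5.79 and 5.68 in T98G and 5.98 and 6.40 in U87MG. For IFIH1 the A172 mimic remained under both T98G arrays, while for RIGI it was the highest of the 6 arrays. DHX58, a regulator of both sensors, differed by 0.62 in A172, IRF9, a DNA-binding part of the complex that interferon activates, by 0.61 and TLR3, the endosomal sensor, by 0.51. IRF1 differed by 0.46, while IRF3 (0.16), IRF7 (-0.10), the kinases JAK1 (-0.18), TYK2 (-0.01) and TBK1 (0.07), the adaptor MAVS (0.01) and the receptor chains IFNAR1 (-0.12) and IFNAR2 (0.26) were all within the central 95% of genes. The interferon genes read in this list were IFNB1 and IFNL1. IFNB1 was at 2.25 and 2.08 in A172, below the filter, and IFNL1, which passed it, at 4.94 and 4.91. Other interferon genes were not read here. The HLA genes were not analysed here, since no probe set with their symbol alone was used.

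Other lists of immune genes were read in the same way. Of 15 measured genes of MHC class I antigen presentation, 0 were past 0.5 in A172 (median 0.02); TAP1, the peptide transporter, differed by 0.19, PSMB9, an immunoproteasome subunit, by 0.20, PSMB8 by 0.28 and B2M by 0.04. Of 27 NF-kB targets, cytokines and chemokines, 0 stood higher and 2 lower by at least 0.5 in A172 (7.41% lower, against 1.72% of all genes; median -0.06): TNFAIP6 went from 4.86 to 4.10 and CXCL8 (interleukin 8) from 5.08 to 4.39. CXCL10, a chemokine that interferon also raises, was below the filter at 2.47 and 2.28.

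The promoters of the interferon-stimulated genes were searched for the core of the interferon-stimulated response element, written as GAAA, any 2 bases (NN), and GAAA again, on both strands of the RefSeq windows of 300 bases (250 before to 50 after the start, GRCh38.p14). It was found in 16 of the 22 members at least 0.5 higher in A172 that had a window (72.7%). Of the other measured members with a window, 13 of 18 held it (72.2%). The share was 2.64% of all filtered genes with a window and 3.65% of all promoters. Members past the threshold of 0.5 and those under it therefore held it about equally often. Since 47 of the 49 measured members were positive in A172, this split is mainly between larger and smaller rises. A match is a description of the letters and shows no binding. Windows around 1 match are shown for 3 of the genes past the limma test, to set the element beside the levels given above. All are printed on the plus strand, with that match in capitals. The 300-base windows of IFIT1, IFI44L and IFITM1 each held 2 matches. For IFIT1 the other match, printed as tttcactttc and also on the opposite strand, lies in the small letters just before the capitals. The printed stretch of IFIT1 lies at chr10:89392505-89392544, with the match in capitals on the opposite strand at -103 to -94 from the start. That of IFI44L lies at chr1:78620360-78620399 with the match in capitals at -73 to -64, and that of IFITM1 at chr11:314019-314058 with it at -6 to 3.
IFIT1: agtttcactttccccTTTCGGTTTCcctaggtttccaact
IFI44L: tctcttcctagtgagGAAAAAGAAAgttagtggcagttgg
IFITM1: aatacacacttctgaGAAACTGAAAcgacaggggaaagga
The OAS1 window held no match to these letters.

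Outside the interferon list, A172 differed from the other lines in single genes. Of the 22 lower genes, 3 were under 0.5 in size in both other lines. LPCAT2, an enzyme of phospholipid remodelling, was at 8.61 and 7.35 in A172, 7.21 and 6.72 in T98G and 3.87 and 3.63 in U87MG. CAVIN3, a coat protein of caveolae, was at 5.59 and 4.58 in A172, 7.46 and 7.31 in T98G and 9.73 and 9.57 in U87MG. CATSPER2P1, a pseudogene that can share probes with its parent gene, was at 4.92 and 3.77 in A172 and between 5.09 and 5.33 on the other 4 arrays. LPCAT2 kept the same sign in the 3 lines, at -1.26, -0.49 and -0.23, and U87MG had little of it on either array. The genes of smallest p for a lower difference in A172 were CATSPER2P1 (term -1.15, limma adjusted p = 0.38) and CENPV, a centromere protein (term -1.14, limma adjusted p = 0.44), and neither passed. CENPV was at 6.45 and 5.70 in A172, 3.85 and 4.15 in T98G and 3.79 and 4.27 in U87MG. The others of that order were KRT37, KRT85, MUC21, VTRNA1-2, CAVIN3 and RNASE11-AS1, with terms from -0.95 to -0.83 and limma adjusted p of 0.77.

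Among the higher genes outside the list, PTPN13, a tyrosine phosphatase, was at 5.26 and 6.43 in A172, 6.64 and 6.83 in T98G and 6.47 and 6.89 in U87MG. ALDH2, the mitochondrial aldehyde dehydrogenase, was at 3.63 and 4.74 in A172, 7.91 and 7.83 in T98G and 5.86 and 5.75 in U87MG. ZNF487 differed by 1.32 in A172, 0.63 in T98G and 0.32 in U87MG. For PTPN13 and ALDH2 both A172 arrays stayed below every array of the other lines. The small RNAs SNORA60 (1.05) and RNU4-2 (1.19), the latter a member of a multicopy family, differed by 0.14 and 0.18 in T98G and by -0.29 and -0.80 in U87MG.

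The remaining lists showed a few large members on a median near 0. Shares of members are read against 1.72% of all genes lower and 1.96% higher by at least 0.5 in A172. Of 42 RAB GTPases, which steer vesicles, 6 stood lower by at least 0.5 in A172 and 0 higher (14.3% lower, against 1.72% of all genes; median -0.02): RAB1A, RAB28, RAB22A (-0.68), RAB43 (-0.62), RAB18 (-0.56) and RAB23 (-0.52). RAB1A, RAB28 and RAB18 (-0.56 in T98G and -0.57 in U87MG) passed 0.5 in both other lines, whereas RAB43 was at -0.09 and 0.05, RAB23 at -0.31 and -0.47, and RAB22A at -0.43 and -0.55. Of 40 genes of microRNA processing and silencing, DCP2 and PAN3, a cofactor of deadenylation (-0.67), stood lower (5.0%) and TNRC6C, an Argonaute partner (0.52), higher. Of 29 Polycomb and SCML genes, SCML1, SCML2 and CBX6 (-0.74) stood lower (10.3%). Of 27 G protein genes, GNAQ and GNB4 (-0.90) did so (7.41%).

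Of 29 genes of TGF-beta signalling, 3 receptors stood lower by at least 0.5 in A172 (10.3%, against 1.72% of all genes) and 0 genes higher (against 1.96%; median -0.04). TGFBR1 went from 8.55 to 7.98 (-0.57, against -0.57 in T98G and -0.95 in U87MG). ACVR2A, an activin receptor, went from 5.73 to 5.06 (-0.66, against -0.45 and -0.27), and the co-receptor TGFBR3 from 5.25 to 4.34 (-0.91, against -0.09 and -0.42). Of 36 receptor tyrosine kinase and MAPK genes, KIT, MET and the ligand NRG1 (0.59) stood higher (8.33%) and EGFR lower (2.78%; -0.58, against -0.43 in T98G and -0.36 in U87MG). Of 34 chromatin enzymes, DNMT3B, a DNA methyltransferase, stood higher (2.94%; 0.73, with 0.77 and 0.50 in the other lines), and KAT2B and HDAC4 (-0.51) lower (5.88%). Of 25 Notch and Hedgehog genes, JAG1 (0.65) and RBPJ (0.60) stood higher by at least 0.5 in A172 (8.0%, against 1.96% of all genes). In A172 0 stood lower, and the median was -0.04. RBPJ was also higher in U87MG (0.94), while in T98G 0 genes of the list were higher and 3 lower by at least 0.5.

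In lists of growth and stress the shares past 0.5 are likewise set against 1.96% of all genes higher and 1.72% lower. Of 49 genes of G1/S and DNA replication, 1 stood higher by at least 0.5 in A172 (GINS3, 0.61; 2.04%) and 0 lower, with a median of 0.11. Of 49 of G2/M and mitosis, 1 did so (BOD1, shared with both lines; 2.04%), so both shares were near that of all genes. CCND1 differed by -0.38 and CDKN1A by 0.24. Of 28 p53 targets, SESN1 (0.58) was the single one past 0.5 (3.57%), and of 40 cytosolic ribosomal protein genes 0 were. For 23 genes of cholesterol synthesis and uptake the A172 median was -0.13, beside -0.09 in both other lines, with SOAT1 as the member past 0.5. Of 36 genes of glycolysis and hypoxia, 2 stood higher and 2 lower by at least 0.5 in A172 (5.56% each), with a median of -0.08. The lowest was PFKP, a phosphofructokinase (8.78 to 8.02, -0.76), and the highest SLC2A3, a glucose carrier (6.64 to 7.34, 0.70). The differences of PFKP and SLC2A3 were -0.17 and -0.08 in T98G and -0.25 and 0.41 in U87MG. Olfactory receptors and keratin-associated proteins are not expected in these cells. Of the measured ones, 1 of 23 olfactory receptors stood higher (4.35%) and 0 lower. Of the keratin-associated proteins 1 of 41 stood lower (2.44%) and 0 higher. Without the filter, 20 of 360 olfactory receptors (5.56%) and 1 of 68 keratin-associated proteins (1.47%) were past 0.5 in size in A172. Genes without expected expression thus also passed 0.5 at shares of a few percent.

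**Figure D4:**
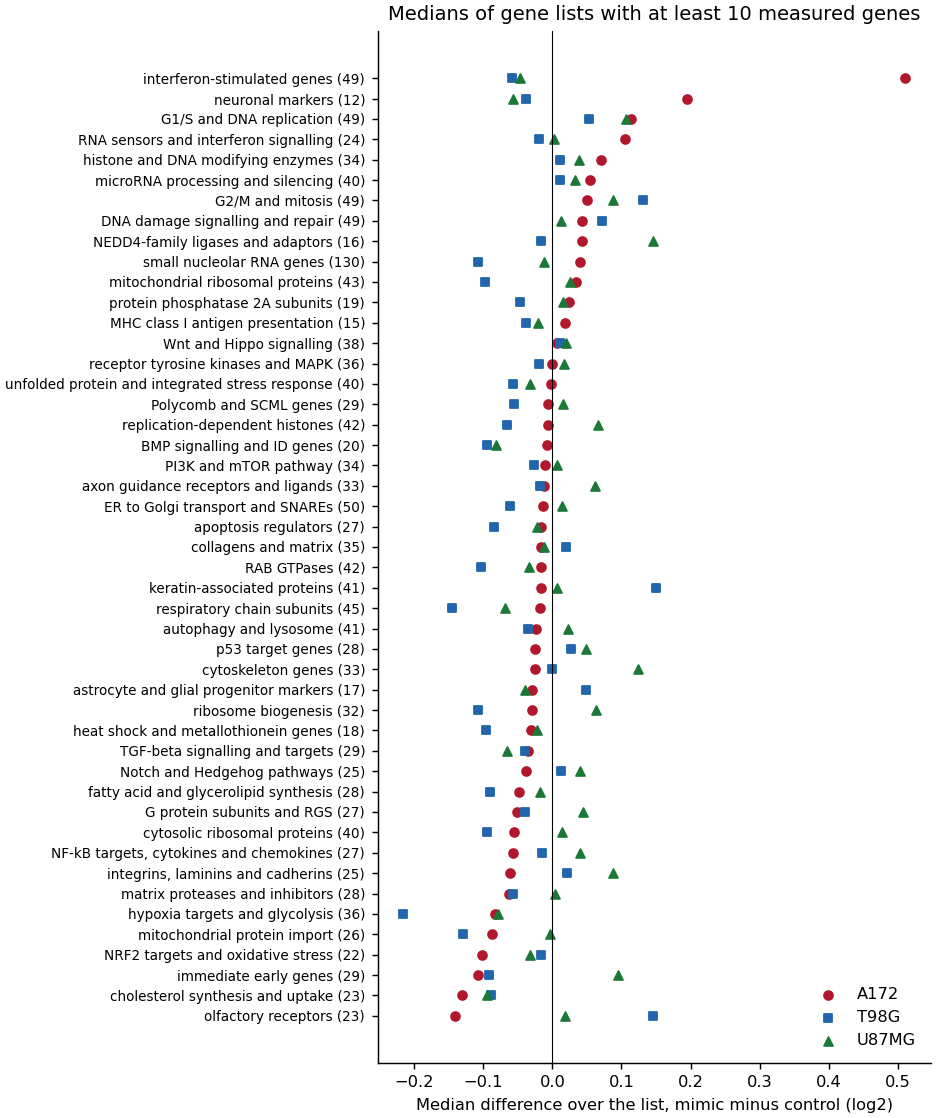
Median difference between the mimic and the control array (log2, horizontal axis) over each gene list with at least 10 measured genes, in A172 (circles), T98G (squares) and U87MG (triangles); the number of measured genes is in brackets. The A172 circle of the interferon-stimulated genes lies at 0.51, and all other points lie between -0.22 and 0.19.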

How the data were processed

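The values deposited by the authors are log2 levels of 33297 probe sets on 6 arrays; per the submitters' processing notes they came from RMA in the package oligo with R 3.0.1. RMA equalizes the distributions of the arrays, so a shift of most genes one way would be largely removed. The number of arrays limits the precision. No further normalization was applied. Probe sets were named by the platform annotation (19460 had 1 symbol, 1754 several and 12083 none listed), symbols were updated through RefSeq's gene table on GRCh38.p14 (19429 matched), and the brightest of several probe sets of a gene was used. Differences were computed with Python 3.11.15 and pandas 2.3.3, and limma 3.58.1 (R 4.3.3) fitted cell line, mimic and a mimic term for A172 (1 residual degree of freedom, 7.34 with the prior), tested on simulated data. Array medians lay between 5.06 and 5.14, and the A172 arrays correlated with r = 0.993 over probe sets. Genes were named by rule: the 15 highest and 15 lowest A172 differences with an A172 array at 6 or above, the 8 each way by the A172 term, genes past 1 in both other lines but under 0.5 in A172 (none was found), the 4 of largest size in a list, PPP2R5A, NDFIP1, RHEB and AATK; others named are members of a small count or were singled out after their values were seen. The members and lists were chosen with earlier results of these data known. Of the listed entries, 112 had no 1-symbol probe set and 508 were below the filter. Other normalizations, filters, naming rules, variance priors and leaving out a line were tried.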

Additional observations from a re-analysis of the deposited data

Results flagged for a closer look

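In 5 genes the A172 difference was past the limma threshold for a difference from the mean of T98G and U87MG: IFIT1 by 2.83, IFI44L by 2.51, IFIT2 by 2.32, IFITM1 by 2.12 and OAS1 by 1.84 on the log2 scale. Each was higher in A172, and the differences in T98G and U87MG lay between -0.58 and 0.20 for these genes.

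Probe sets outside the gene analysis also differed. Among 2870 probe sets with no symbol listed that reached a level of 6 on an A172 array, 9 stood higher and 10 lower by at least 1 in A172, and 0 of either were shared with both other lines. One of them went from 1.34 to 6.12 in A172, a difference of 4.78, against 1.18 in T98G and -0.53 in U87MG. Among 840 probe sets with several symbols, 4 stood higher and 1 lower by at least 1, and 1 of each was shared. What these probe sets measure was not analysed here.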

How the results depend on the processing

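The 42 named genes kept their A172 direction under the alternatives tried. Of 278 such values 276 moved by less than the spread over the lines, and the other 2 were those of NDFIP1 (-0.986 with cyclic loess and -0.993 with repeated quantile normalization). With at least 1 asked of both other lines, 11 of the 22 lower and 1 of the 24 higher genes were shared. Leaving out T98G or U87MG gave 19 to 19 shared lower genes and 3 to 4 shared higher genes; no limma test can be made then, since no residual degree of freedom is left. With the lowest 50% of genes left out, 155 genes were higher and 156 lower by 0.5, 13 were higher by 1, and 14 of 33 interferon-stimulated genes were higher by 0.5. The limma count for a higher A172 difference was 28 with arrays centred on their medians (13 in the interferon list), 8 with repeated quantile normalization, 9 where the variance prior was let to follow expression, and 0 without a filter; the count for a lower A172 difference was 6 with centred arrays. The limma counts in T98G and U87MG were 83 higher and 241 lower with centred arrays, 19 and 84 with cyclic loess, 59 and 175 with the lowest 50% left out, 3 and 17 with no filter, 79 and 211 with the variance prior, and 20 higher with repeated quantile normalization. Centring moved the higher share of T98G genes past 0.5 from 39.5% to 21.7%, and that of A172 from 53.2% to 54.7%. Of 356 list medians 349 moved less than the spread. The interferon list's alternatives were chosen after seeing the data.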

Other observations

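The promoter search was also run on the A172 genes outside the interferon list. Of 245 genes that stood higher by at least 0.5 in A172 outside the interferon list, 190 had a RefSeq promoter window, and 16 of these (8.42%) held 2 copies of GAAA separated by 2 bases, against 0 of 190 windows of the genes that stood lower and 288 of 10920 (2.64%) of all filtered genes. Some of the 16 passed the filter through the other lines and were low on the A172 arrays; with the filter set on the A172 arrays alone, a choice made after seeing the data, the counts were 12 of 184 higher genes (6.52%), 0 of 191 lower genes and 282 of 10914 (2.58%) of all. Beside the sensors IFIH1 and TLR3, the 16 were GIMAP2, TENM2, GBP3, NFIB, AIM2, BTN3A3, METTL16, RSPO3, RAB19, LDAH, CFB, FEZ1, SPMIP4 and SHFL. GBP3, a guanylate-binding protein, went from 3.57 to 4.36 in A172, near the filter level of 4.28, with differences of 0.15 in T98G and 0.04 in U87MG. AIM2, a sensor of cytosolic DNA, went from 2.37 to 2.93 in A172, under the filter level on both arrays, and differed by -0.27 in T98G and -0.83 in U87MG. BTN3A3, a butyrophilin, went from 5.46 to 6.02 in A172 and differed by -0.28 and -0.31 in the other lines. CFB, complement factor B, went from 5.41 to 5.93, and SHFL, an antiviral inhibitor of frameshifting, from 6.22 to 6.72. GBP3, AIM2, BTN3A3, CFB and SHFL were singled out after their values were seen, and none of the 16 passed the limma test of the A172 term (adjusted p of 0.77 or more).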
